A study of Mus musculus with 6 samples.

Results

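Apolipoproteins are the protein coat of the particles that carry fat and cholesterol in plasma. The hepatocyte loads triglyceride onto APOB with the help of microsomal triglyceride transfer protein, the product of Mttp, and secretes very low density lipoprotein (VLDL). It also secretes APOA1 and APOA2, the main proteins of high density lipoprotein (HDL), and small exchangeable proteins that steer lipolysis and uptake. APOC2 activates lipoprotein lipase, APOC3 inhibits lipolysis and remnant uptake, APOA5 promotes lipolysis, and APOE is the ligand by which remnant particles are taken back into the liver. The 10 genes described here, Apoa1, Apoa2, Apoa4, Apoa5, Apob, Apoc2, Apoc3, Apoe, Apom and Mttp, were chosen by name from the 21362 genes in the deposited gene table. All 10 were among the 13431 genes with enough counts to test.

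RNA was sequenced from the livers of 6 male Mettl14f/f mice, which carry floxed Mettl14 alleles in both groups. METTL14 is the structural partner of METTL3 in the enzyme complex that writes N6-methyladenosine on mRNA. The mice were fed HFD from 8 weeks of age, received an AAV8 vector after 10 weeks on the diet, and their livers were taken 8 weeks later. The vector carried Cre (AAV8-TBG-Cre, 3 mice, labelled METTL14 KO) or GFP (AAV8-TBG-GFP, 3 mice, labelled WT) behind the TBG promoter, which is restricted to hepatocytes, so the other liver cells keep Mettl14. The comparison asks how the level of each transcript differs between livers given Cre and livers given GFP. Mettl14 itself had 124, 126 and 111 counts in the libraries labelled AAV8-TBG-GFP and 104, 131 and 101 in those labelled AAV8-TBG-Cre. Its log2 fold change was -0.29 (adjusted p = 0.336 by the quasi-likelihood test of edgeR), so the directions given here rest on the labels. The floxed exon cannot be separated from the rest of the gene in these totals.

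The libraries held 20356466 to 21010527 counts each. For the cell markers, higher or lower means an unadjusted p under 0.05 by edgeR with a fold change of at least 1.2. By that rule 12.0% of all genes tested were higher and 8.41% were lower. Hepatocyte markers were abundant in every library: all 17 were tested, 2 were higher and 1 was lower, and their summed level lay between 146696 and 169548 CPM (counts relative to the size of the library, which the TMM method adjusts for its composition) in AAV8-TBG-GFP and between 117642 and 160627 CPM in AAV8-TBG-Cre livers. Markers of other cells differed between the groups. Of 10 cholangiocyte markers 9 were higher (summed level 80.6 to 135 against 320 to 597 CPM), of 14 macrophage and Kupffer cell markers 11 were higher (340 to 387 against 555 to 881 CPM), and of 11 stellate cell and fibroblast markers 6 were higher (265 to 404 against 516 to 1096 CPM). The largest part of the cholangiocyte sum was Spp1 (66.8 against 324 CPM on average). Of 10 endothelial markers 0 were higher and 1 was lower (186 to 294 against 194 to 228 CPM). At an adjusted p under 0.05 by edgeR, 3 cholangiocyte markers and 1 macrophage and Kupffer cell marker were higher. At that level 0 stellate cell and fibroblast markers and 0 endothelial markers were called. The part of these cells in the results was not tested, and in whole liver fewer cells of a type and less RNA per cell cannot be told apart. The small intestine also makes lipoproteins. Of 10 enterocyte markers 4, Cdx1, Cdx2, Alpi and Sis, were at 0 in all 6 libraries. Another 4 of the 10 were tested, with a median log2 fold change of 1.02. Of these 2 were higher and 1 was lower, and 1 was higher at an adjusted p under 0.05 by edgeR. The summed level of the list (66.7 to 79.0 against 50.6 to 70.7 CPM) was mostly Fabp2 (70.8 against 51.9 CPM on average).

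Among the 10 genes, Apoa2 and Mttp were lower and Apom was higher in AAV8-TBG-Cre livers at the threshold of the study, an unadjusted p under 0.05 with a fold change of at least 1.2. At that threshold 8.41% of all genes tested were lower and 12.0% were higher, so 2 and 1 of 10 were counts near the background. At an adjusted p under 0.05, edgeR called 0 of the 10 (3 had an unadjusted p under 0.05) and 0.931% of all genes. DESeq2 called 2, Apoa2 and Mttp, against 7.43% of all genes. With limma on FPKM 0 were called, and its share of all genes was not counted. The other 7 genes did not pass either threshold. In CPM the groups did not overlap for 3 of 10 genes, Apoa2, Mttp and Apoe, against 27.0% of all genes. Of the 10 log2 fold changes 8 were negative, with a median of -0.12 against -0.0062 over all genes, but only 5 were negative with FPKM or with scaling on hepatocyte markers. Those scalings moved the median of all genes up by 0.13 to 0.16 on the log2 scale.

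The levels spanned a wide range. In FPKM, which corrects for transcript length and so allows genes to be compared, Apoe had 15430 ± 160 (SD, n = 3) in AAV8-TBG-GFP livers and ranked 2 or 3 among all genes in every library. Apoa2 followed with 11243 ± 521, Apoa1 with 8143 ± 1519 and Apoc3 with 2863 ± 248 FPKM. The ranges of these neighbours over the 3 libraries did not overlap. Apoa4 (813 ± 325), Apoa5 (454 ± 68.9), Apob (390 ± 26.9) and Apoc2 (368 ± 96.4 FPKM) overlapped from each to the next. Apom had 139 ± 25.7 and Mttp 93.7 ± 6.76 FPKM, with no overlap between them. In AAV8-TBG-Cre livers the order was the same except that Apoa1 (9766 ± 1389) stood above Apoa2 (8259 ± 276 FPKM). Together the 10 genes took 4.28% ± 0.227 of all counts in AAV8-TBG-GFP and 4.26% ± 0.346 in AAV8-TBG-Cre livers (SD, n = 3), a difference smaller than the spread between mice. That share leaves out the TMM factors, on which the fold changes rest. With them the sums were 43137, 43327 and 49704 CPM in AAV8-TBG-GFP and 39173, 35037 and 47017 CPM in AAV8-TBG-Cre livers, with overlap.

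**Figure D1:**
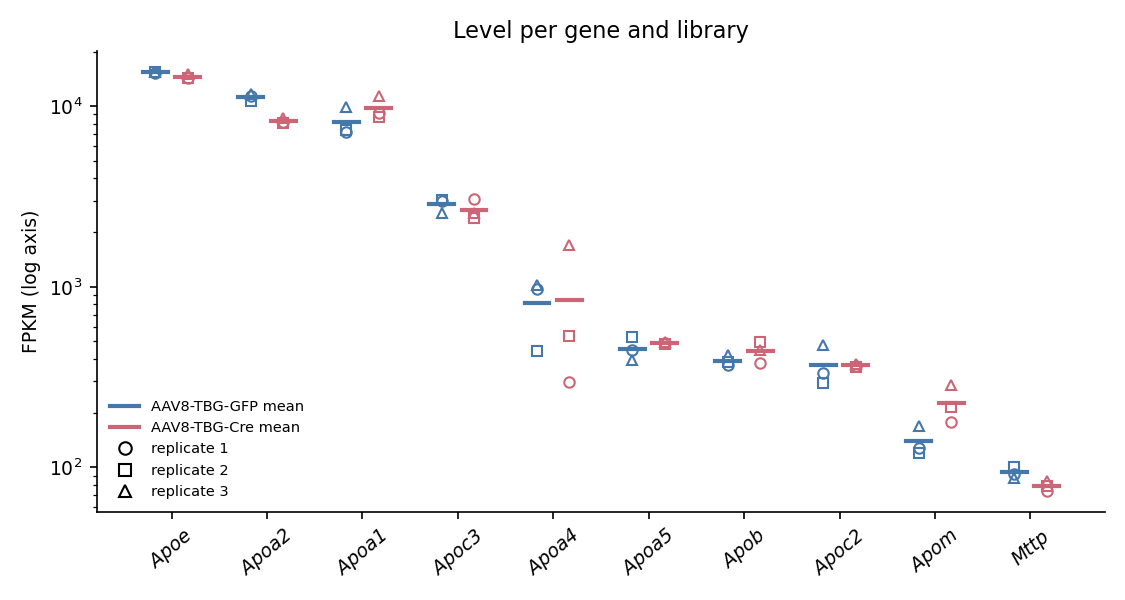
FPKM (log axis) of each gene in each library, ordered by the mean in AAV8-TBG-GFP livers; markers are single libraries and bars are means of 3. Apoe stands highest in both groups, Apoa2 stands above Apoa1 in AAV8-TBG-GFP and below it in AAV8-TBG-Cre livers, and Apoa4 has the widest spread.

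Short stretches of promoter show where common elements lie near the starts of the genes. RefSeq promoters (assembly GRCm38.p6, the mm10 assembly, from 250 bases before to 50 after a start) were found for 9 of the 10 genes, in 13 windows. Exact matches on both strands were sought for TATAAA (the letters of a TATA box), AGGTCA (nuclear receptor half-site), TGACGT (core of a cAMP response element) and CAAAGTC (core of an HNF4A element). These letters occur in 13.6%, 16.3%, 7.51% and 4.44% of 32851 promoters of the same length. The stretches below are those of the 2 genes that were lower, Apoa2 and Mttp, and, for comparison, of Apob and Apoa5, which passed no threshold. They run 5′ to 3′ on the strand of the gene, and capitals mark the match.
Apoa2, chr1:171224831-171224858, plus strand: tgatggatacaTATAAAcccatcaactc
Apoa2, chr1:171221315-171221342, plus strand: tctcccaccctTGACCTttttttccatc
Mttp, chr3:138143431-138143458, minus strand: acttacggcttACGTCAtcggactgcgc
Apob, chr12:7977606-7977633, plus strand: ccagctcctccTATAAAtggagcacttt
Apoa5, chr9:46268566-46268593, plus strand: ggcgcctagagTATAAAgtaagagtgtc
The second Apoa2 match and the Mttp match read AGGTCA and TGACGT on the opposite strand. Relative to the start site around which its window was drawn, TATAAA began at -212 in Apoa2, at -60 in Apob and at -31 or -56 in Apoa5, which has 2 starts. The Apob start site used, 7977677, lies inside the gene, which begins at 7977629. These 3 TATAAA matches thus lay at unlike distances from the start sites used, and letters far from a start need not act as a TATA box. The second Apoa2 match began at -238, from another start, and the Mttp match at -29. Apoa2 and Mttp had no match in common. Apoc2 and Apoe, which passed no threshold, also held matches. In Apoc2 AGGTCA began at -115 and at 42, and in Apoe TATAAA began at -100 and at -96. The windows of Apoa1, Apoa4 and Apom held none, and a match is no proof of a site.

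Apob and Mttp are the core of VLDL assembly. Apob, on chromosome 12 (7977629 to 8016839), had 5411, 5696 and 6533 CPM in AAV8-TBG-GFP livers and 5268, 5924 and 6392 CPM in AAV8-TBG-Cre livers. The groups overlapped fully, and the log2 fold change was -0.0045 (SE 0.20, 95% interval -0.47 to 0.46, adjusted p = 0.994 by edgeR). Mttp, on chromosome 3 (138089855 to 138143418), had 383, 427 and 386 CPM in AAV8-TBG-GFP and 291, 269 and 342 CPM in AAV8-TBG-Cre livers. All 3 AAV8-TBG-Cre livers lay below all 3 AAV8-TBG-GFP livers, and the means were 398 ± 24.5 and 301 ± 37.6 CPM (SD, n = 3). The log2 fold change of Mttp was -0.41 (SE 0.14, 95% interval -0.73 to -0.08), a fold of 0.755, with an adjusted p of 0.161 by edgeR. The exact two-sided permutation test gave p = 0.1, the smallest that 3 against 3 allows. The call was lost without AAV8-TBG-GFP replicate 2 (-0.35), with scaling on hepatocyte markers (-0.29) and, for its fold of under 1.2, with limma on FPKM (-0.24). Its main transcript, NM_008642, held 98.2% ± 0.383 of its counts in AAV8-TBG-GFP and 98.0% ± 0.442 in AAV8-TBG-Cre livers, within the spread.

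Of Apoa1 and Apoa2, the main HDL proteins, Apoa2 was lower and Apoa1 passed no threshold, and the difference between the 2 was not tested. Apoa2, on chromosome 1 (171221564 to 171226379), had 5844, 5518 and 6270 CPM in AAV8-TBG-GFP livers and 3943, 3358 and 4266 CPM in AAV8-TBG-Cre livers. Every AAV8-TBG-Cre liver lay below every AAV8-TBG-GFP liver, with means of 5878 ± 377 and 3856 ± 460 CPM (SD, n = 3). The log2 fold change was -0.61 (SE 0.19, 95% interval -1.06 to -0.16), a fold of 0.656, with an adjusted p of 0.142 by edgeR. DESeq2 gave an adjusted p of 0.000455, and over all alternatives the adjusted p of Apoa2 ran from 0.000455 to 0.673. The threshold of the study was passed in 17 of 18 alternatives, the exception being limma on FPKM of all genes without a filter (-0.44).

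A pair of transcripts carried nearly all Apoa2 counts, and their proportions stayed close. NM_001305549 held 53.1% ± 0.733 and 54.0% ± 0.497, and NM_013474 held 45.0% ± 0.595 and 44.2% ± 0.592 of the counts in AAV8-TBG-GFP and AAV8-TBG-Cre livers (exact two-sided permutation p = 0.2 for each). Both were lower in number of counts: NM_001305549 had 58397 to 63129 counts in AAV8-TBG-GFP and 44337 to 47309 in AAV8-TBG-Cre livers.

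Apoa1 had 7225, 7502 and 10527 CPM in AAV8-TBG-GFP and 8779, 7189 and 11134 CPM in AAV8-TBG-Cre livers. The groups overlapped, and its log2 fold change was 0.10 (SE 0.27, 95% interval -0.52 to 0.72, adjusted p = 0.862 by edgeR). Replicate 3 was the highest library of each group. Apom, the HDL protein that carries sphingosine-1-phosphate, lies on chromosome 17 (35128997 to 35131801). It had 94.5, 90.1 and 131 CPM in AAV8-TBG-GFP and 124, 130 and 204 CPM in AAV8-TBG-Cre livers. The groups overlapped in CPM, since AAV8-TBG-GFP replicate 3 lay above 2 AAV8-TBG-Cre livers. In FPKM they did not overlap (121 to 169 against 179 to 284). The log2 fold change of Apom was 0.54 (SE 0.23, 95% interval 0.0025 to 1.07), a fold of 1.45, with an adjusted p of 0.237 by edgeR. The call was lost without AAV8-TBG-Cre replicate 3 (0.27), without AAV8-TBG-GFP replicate 1 (0.46) or replicate 2 (0.44), and when the 2 forms of library name entered as a covariate (0.39).

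**Figure D2:**
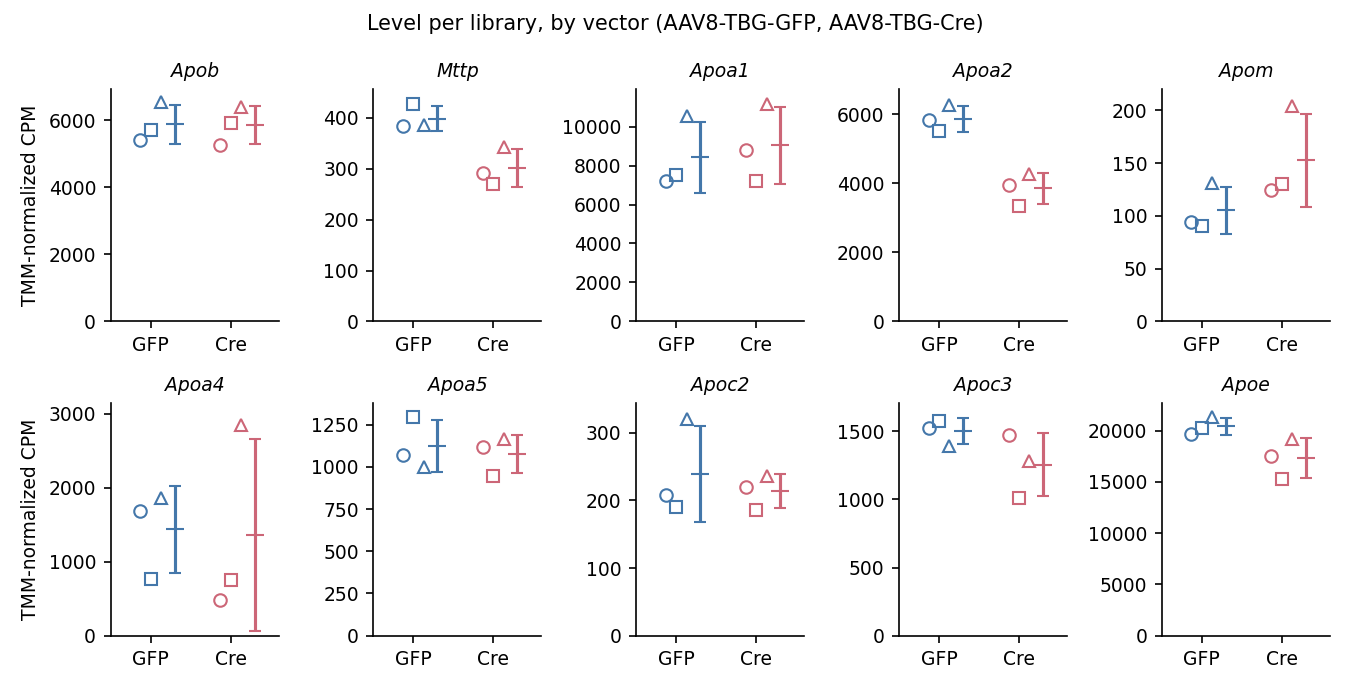
TMM-normalized CPM of each gene in each library (circle, square and triangle for replicates 1, 2 and 3) with the mean and SD of 3 beside them; each axis starts at 0. Apoa2, Mttp and Apoe have groups that do not overlap, and in Apoa4 the AAV8-TBG-Cre libraries run from 481 to 2854 CPM.

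The library names come in a short and a long form that the labels do not explain. Short names belong to replicate 1 of both groups and to replicate 2 of AAV8-TBG-GFP, and long names to the remaining 3 libraries. Within the short and the long names, the log2 ratio of mean CPM was -0.53 and -0.72 for Apoa2, -0.48 and -0.33 for Mttp and 0.43 and 0.35 for Apom. The direction of these 3 genes was therefore the same within both forms. For Apoa1 it was 0.25 and -0.20 and for Apoc2 0.14 and -0.60, so the sign turned. For Apoa4 it was -1.35 and -0.05. With 1 library on a side in each form these ratios have no test.

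Apoc2, Apoc3 and Apoa5 act on lipolysis. Apoc2, the activator of lipoprotein lipase, had 208, 190 and 320 CPM in AAV8-TBG-GFP and 219, 186 and 236 CPM in AAV8-TBG-Cre livers, with overlapping groups (log2 fold change -0.16, SE 0.21, 95% interval -0.66 to 0.34, adjusted p = 0.717 by edgeR). Apoc3, the inhibitor, had 1527, 1578 and 1394 CPM against 1471, 1013 and 1279 CPM. Only AAV8-TBG-Cre replicate 1 lay within the range of the AAV8-TBG-GFP livers, and the log2 fold change was -0.26 (SE 0.19, 95% interval -0.69 to 0.17, adjusted p = 0.479 by edgeR). Apoa5 had 1072, 1295 and 999.5 CPM against 1121, 949 and 1164 CPM, also overlapping (log2 fold change -0.06, SE 0.17, 95% interval -0.46 to 0.34, adjusted p = 0.879 by edgeR). The intervals of Apoc2 and Apoc3 do not exclude a fold of 1.5 lower. The main transcript of Apoc3, NM_023114, held 87.6% ± 1.46 and 88.8% ± 2.18 of its counts, and that of Apoc2, NM_001309795, held 59.3% ± 6.64 and 56.4% ± 6.47 (exact two-sided permutation p = 0.5 and 0.6).

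Apoa4, a protein of intestinal and hepatic particles whose level follows fasting and lipid load, was the most variable of the 10 genes. It had 1680, 769 and 1866 CPM in AAV8-TBG-GFP and 481, 758 and 2854 CPM in AAV8-TBG-Cre livers. The highest AAV8-TBG-Cre library was 5.93 times the lowest, and the highest and the lowest of all 6 libraries were both in that group. The log2 fold change was -0.08 (SE 0.65, 95% interval -1.58 to 1.43, adjusted p = 0.962 by edgeR). Without AAV8-TBG-Cre replicate 3 it was -1.22, past the threshold of the study (adjusted p = 0.210 by edgeR), so 1 library decides the value. With the form of name as a covariate it was -0.70, not past the threshold.

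Apoe had 19693.5, 20262 and 21278.5 CPM in AAV8-TBG-GFP and 17474, 15260 and 19146 CPM in AAV8-TBG-Cre livers. The groups did not overlap, but the log2 fold change was -0.24 (SE 0.23, 95% interval -0.78 to 0.30, adjusted p = 0.607 by edgeR), which passed neither threshold. The SD of Apoe was 803 CPM in AAV8-TBG-GFP and 1949 CPM in AAV8-TBG-Cre livers (n = 3). The SE by edgeR also draws on the spread of other genes. Macrophages also make Apoe, and 11 of 14 macrophage and Kupffer cell markers were higher in AAV8-TBG-Cre livers. The part of macrophages in the level of Apoe was not tested. Its main transcript, NM_009696, held 63.4% ± 5.98 of the counts in AAV8-TBG-GFP and 69.0% ± 4.76 in AAV8-TBG-Cre livers (exact two-sided permutation p = 0.4).

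**Figure D3:**
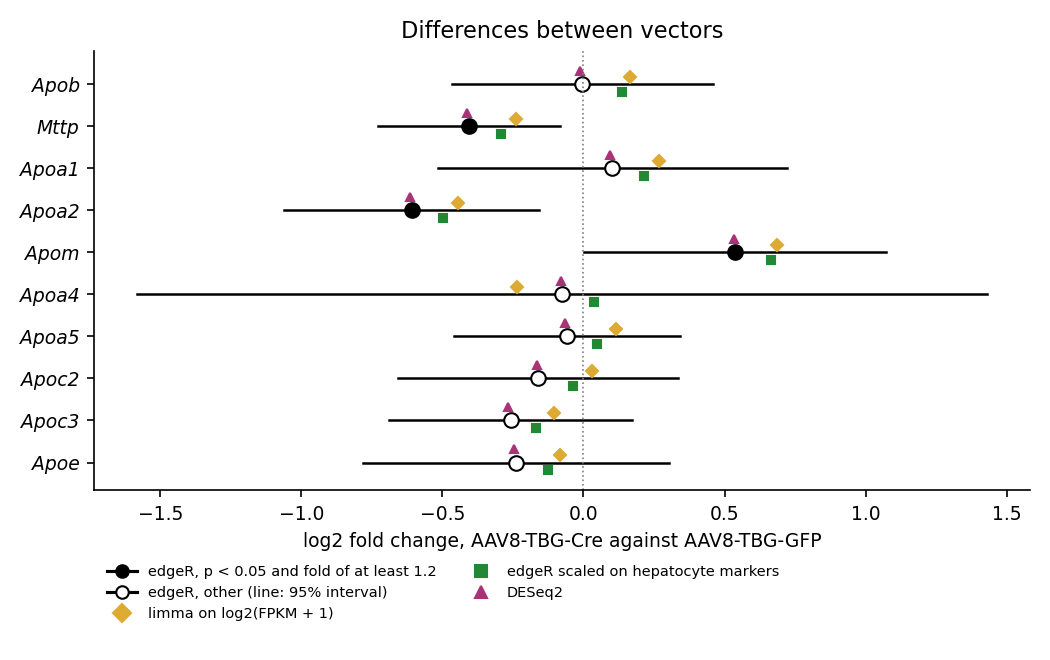
Log2 fold change of each gene, AAV8-TBG-Cre against AAV8-TBG-GFP, with its 95% interval by edgeR (circles, filled where p was under 0.05 with a fold of at least 1.2) and the estimates of DESeq2, limma on FPKM and edgeR scaled on hepatocyte markers. Apoa2 and Mttp lie below 0 and Apom above 0 under all 4, and Apob lies at -0.0045 by edgeR and above 0 on the FPKM and hepatocyte marker scales.

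Ratios of genes within a library need no scaling between libraries. They were chosen after the values of the single genes were seen and carry no test. The ratio of Apoa1 to Apoa2 in FPKM was 0.627, 0.690 and 0.852 in AAV8-TBG-GFP and 1.13, 1.09 and 1.32 in AAV8-TBG-Cre livers, so Apoa2 was the more abundant of the pair in all 3 of the former and Apoa1 in all 3 of the latter. The ratio of Apob to Mttp was 4.00, 3.78 and 4.79 against 5.13, 6.23 and 5.28. The ratio of Apom to Apoa1 was 0.0179, 0.0165 and 0.0171 against 0.0194, 0.0248 and 0.0251. None of these 3 ratios overlapped between groups. The ratio of the inhibitor Apoc3 to the activator Apoc2 overlapped, at 8.23 ± 2.55 against 7.26 ± 0.915 (SD, n = 3). Of all 45 ratios between 2 of the genes, 15 did not overlap, against 28.1% of the ratios between any 2 genes tested, so neither that count nor a single ratio without overlap stands out from the background. Apoa2 took part in 7 of these, Apom in 6, Mttp in 4 and Apoa4 in 0.

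**Figure D4:**
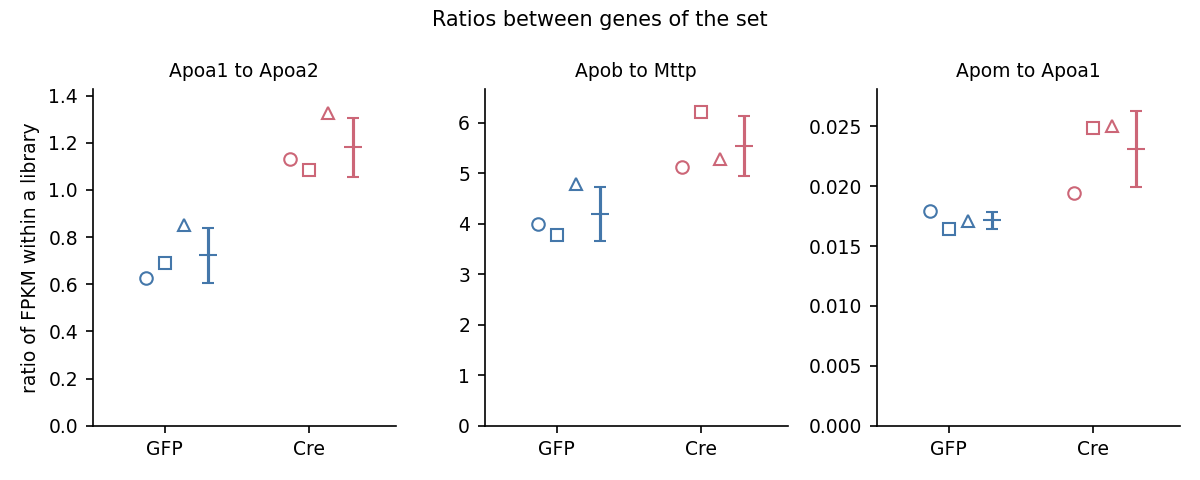
Ratio of FPKM of Apoa1 to Apoa2, Apob to Mttp and Apom to Apoa1 within each library, with the mean and SD of 3 per group; each axis starts at 0. In each panel all 3 AAV8-TBG-Cre livers lie above all 3 AAV8-TBG-GFP livers, and the Apoa1 to Apoa2 ratio passes from below 1 to above 1.

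Over the 6 libraries, with the difference between groups included, the log2 CPM of Apoa2 was most like that of Apoe (Pearson r = 0.932), and so was that of Mttp (0.920). Apoa1 was most like Apoc2 (0.799) and Apom most like Apoa1 (0.779). In the deviations from the group means the order was partly another. Apoa2 was again most like Apoe (0.936) and Apom most like Apoa1 (0.897), but Mttp was most like Apoa5 (0.805, against 0.792 with Apoe). Apoa1 had nearly equal values with Apom (0.897), Apoa2 (0.895), Apoe (0.892) and Apoc2 (0.891). The libraries share the scaling factor of each liver, and 6 points allow description only.

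Of the 10 genes 6 lie in gene clusters. Apoa1, Apoc3, Apoa4 and Apoa5 lie within 43292 bases of chromosome 9, and their log2 fold changes were 0.10, -0.26, -0.08 and -0.06. Apoc2 and Apoe, with Apoc4 and Apoc1 between them, lie within 29732 bases of chromosome 7. All 4 genes there missed the threshold, with log2 fold changes of -0.16, -0.24, 0.07 and -0.09. Apoc2 and Apoc4 are 142 bases apart, and reads from transcripts that span both could be split between them. The 3 genes that passed the threshold, Apoa2, Mttp and Apom, lie outside both clusters.

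N6-methyladenosine is written in short motifs of which GGACT is a common form, and the 10 transcripts differ in how many they hold. In the transcripts of an older annotation (GENCODE vM1 on assembly NCBIM37), Apob held 15 GGACT and Mttp 5, or 1.08 and 1.26 per kilobase, against a median of 1.06 over the 11525 tested genes that matched (85.8%). The matched genes were represented by their longest transcript, and the 10 genes by the transcript nearest in length to the main deposited one. The 2 sides are therefore not chosen alike. Apoa2 held 1 in 518 bases, or 1.93 per kilobase, a higher density than 86.3% of the matched genes. In a transcript this short a single GGACT gives that density. Apoa5 held 2 (0.865 per kilobase), and Apoa1, Apoa4 and Apom held 1 each (0.966, 0.551 and 0.987 per kilobase). Apoc2, Apoc3 and Apoe held 0 in 589, 526 and 1221 bases. Other forms of the motif were not counted, so a count of 0 does not mean that a transcript lacks sites. At least 1 was held by 92.4% of matched genes, a share that depends on transcript length. Methylation itself was not measured in these libraries. The Apom transcript there is 1013 bases long against 731 in the deposited files.

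The rest of the lipoprotein system was described with 6 lists that together hold 128 genes, of which 121 were tested. At the threshold of the study 5 were higher (12.0% of all genes were) and 17 were lower (8.41% of all genes were), with a median log2 fold change of -0.11 against -0.0062 over all genes. The split depends on the scale: limma on FPKM gave 12 higher and 9 lower. On that scale the log2 fold changes of all genes were shifted up by a median of 0.15. Without AAV8-TBG-Cre replicate 1 the lower count was 26 and without AAV8-TBG-Cre replicate 3 it was 11. The shares of all genes called in these alternatives were not counted. At an adjusted p under 0.05, edgeR called 1 higher, Lpl, and 1 lower, Pcsk6.

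The lipoprotein lipase system, which hydrolyses the triglyceride of particles in plasma, held both of those calls. Lpl, the lipase itself, had 16.9, 12.7 and 26.3 CPM in AAV8-TBG-GFP and 81.8, 181 and 90.3 CPM in AAV8-TBG-Cre livers. The groups lay far apart, and the log2 fold change was 2.66 (SE 0.38, adjusted p = 0.0363 by edgeR). Macrophages express Lpl, and their marker Lyz2 (named after its values were seen) had 43.0 CPM in AAV8-TBG-GFP and 123 CPM in AAV8-TBG-Cre livers on average. Lyz2 had a log2 fold change of 1.52, above the median of 0.73 over the 14 macrophage and Kupffer cell markers. Of those, 11 were higher at the threshold of the study, while Marco (-0.75), Clec4f and Timd4 (0.29 each) did not pass. These were also named after their values were seen. The part of macrophages in the Lpl difference was not tested. Pcsk6, a proprotein convertase that can cleave lipases, had 231, 243 and 247 CPM against 150, 140 and 151 CPM (log2 fold change -0.71, SE 0.11, adjusted p = 0.0396 by edgeR). Leaving out any library other than AAV8-TBG-Cre replicate 1 took both above an adjusted p of 0.05, and over all alternatives the adjusted p reached 0.148 for Lpl and 0.166 for Pcsk6. Lmf1, which matures lipases in the endoplasmic reticulum, was lower (58.2 ± 2.85 against 39.1 ± 4.32 CPM, log2 fold change -0.57), as was Angptl4, an inhibitor of the lipase and a PPAR target (221 ± 39.9 against 118 ± 39.4 CPM, log2 fold change -0.91). Of 11 genes 1 was higher and 3 were lower.

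Of 32 genes of VLDL assembly and secretion 0 were higher and 4 were lower. Mia2 and Sar1b act in the export of large cargo from the endoplasmic reticulum, Ces1d is a lipase that mobilizes stored triglyceride for VLDL, and A1cf is the partner of the enzyme that edits Apob mRNA. Ces1d had 545, 531 and 453 CPM in AAV8-TBG-GFP and 371, 255 and 125 CPM in AAV8-TBG-Cre livers, without overlap (log2 fold change -1.02, SE 0.35, adjusted p = 0.158 by edgeR). The log2 fold changes of Mia2, Sar1b and A1cf were -0.45, -0.46 and -0.44, like that of Mttp. None of those 3 passed with limma on FPKM (-0.28, -0.29 and -0.27) or with scaling on hepatocyte markers. Sar1b was also lost without AAV8-TBG-GFP replicate 1 or 2 or AAV8-TBG-Cre replicate 2 or 3, and A1cf without AAV8-TBG-GFP replicate 2 or AAV8-TBG-Cre replicate 3.

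Of 18 genes of HDL formation and remodelling 1 was higher and 4 were lower. Abcg1, a cholesterol exporter that is strong in macrophages, was higher (7.71 ± 1.64 against 13.6 ± 2.27 CPM, log2 fold change 0.82, adjusted p = 0.0814 by edgeR). Enpp2, the secreted enzyme autotaxin, was lower (148 ± 20.6 against 101 ± 17.7 CPM, log2 fold change -0.55). The serum amyloid A genes, whose products ride on HDL, were lower, and leaving out single libraries undid the calls of Saa2 and Saa4. Saa2 had 73.3, 89.0 and 826 CPM in AAV8-TBG-GFP and 78.5, 55.9 and 51.8 CPM in AAV8-TBG-Cre livers. Its log2 fold change was -2.41, and -0.40 without AAV8-TBG-GFP replicate 3. It also missed the threshold without AAV8-TBG-Cre replicate 2 or 3. Saa4 had 753, 835 and 627 CPM against 600, 215 and 244 CPM, without overlap and without a single high library (log2 fold change -1.06). Its call was lost without AAV8-TBG-GFP replicate 1 or 2 or AAV8-TBG-Cre replicate 2 or 3. Saa1, named after its values were seen, had 140, 193 and 1224 CPM against 170, 99.5 and 110.2 CPM (log2 fold change -2.04), with the same high library as Saa2. Saa1 and Saa2 are near-identical copies whose reads the counting may split.

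Of 16 receptor and clearance genes tested 2 were higher and 1 was lower. Apobr, a macrophage receptor for APOB48 particles, was higher at a low level (1.35 ± 0.232 against 3.11 ± 1.33 CPM, adjusted p = 0.121 by edgeR). Lsr, the lipolysis stimulated lipoprotein receptor of hepatocytes, was higher (203 ± 11.7 against 256 ± 37.5 CPM, log2 fold change 0.34) and lost its call without any single library other than AAV8-TBG-Cre replicate 2. Ndst1, which sulfates the heparan sulfate that binds remnants, was lower (183 ± 18.7 against 144 ± 12.1 CPM, log2 fold change -0.35) and lost its call without AAV8-TBG-GFP replicate 3 or AAV8-TBG-Cre replicate 3, on FPKM and with hepatocyte marker scaling. Snx17, which recycles receptors of the LDL receptor family, had 13.2 ± 2.24 against 16.2 ± 0.619 CPM and did not pass.

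Of 12 other apolipoprotein genes tested 0 were higher and 1 was lower. Apol7a had 115 ± 18.1 against 83.7 ± 10.7 CPM (log2 fold change -0.46), and it missed the threshold without replicate 3 of either group. Clu, clusterin or apolipoprotein J, had 2445 ± 339 against 3165 ± 491 CPM and did not pass in the edgeR test (log2 fold change 0.37), though it did with DESeq2, hepatocyte marker scaling and limma on filtered FPKM. Apon (464 ± 49.9 against 401 ± 52.5 CPM) and Apoo, whose product lies in mitochondria (18.3 ± 2.00 against 15.4 ± 1.98 CPM), did not pass either.

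Of 32 regulators of apolipoprotein genes 1 was higher and 4 were lower. Ppara, the fatty acid receptor that acts on Apoa1, Apoa2, Apoa5 and Apoc3, had 606, 615 and 572 CPM in AAV8-TBG-GFP and 446, 371 and 437 CPM in AAV8-TBG-Cre livers. The groups did not overlap (log2 fold change -0.52, SE 0.14, adjusted p = 0.0970 by edgeR). Nr1h4, the bile acid receptor FXR, was lower (171 ± 5.25 against 123 ± 24.3 CPM, log2 fold change -0.48), as was Mlxipl, the carbohydrate response factor ChREBP (320 ± 27.1 against 210 ± 64.6 CPM, log2 fold change -0.61). Mlxipl lost its call without AAV8-TBG-GFP replicate 1 or 2 or AAV8-TBG-Cre replicate 3. Ern1, the endoplasmic reticulum stress sensor IRE1, had 33.3 ± 0.581 against 27.8 ± 1.96 CPM, a fold of under 1.2. The remaining 2 calls were Foxa3, higher (51.9 against 82.9 CPM on average), and Nr0b2, lower (44.1 against 26.9 CPM), both named after their values were seen. Hnf4a, a hepatocyte factor for many of these promoters, also named after its values were seen, had 765 CPM in AAV8-TBG-GFP and 802 CPM in AAV8-TBG-Cre livers on average (log2 fold change 0.07) and did not pass.

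**Figure D5:**
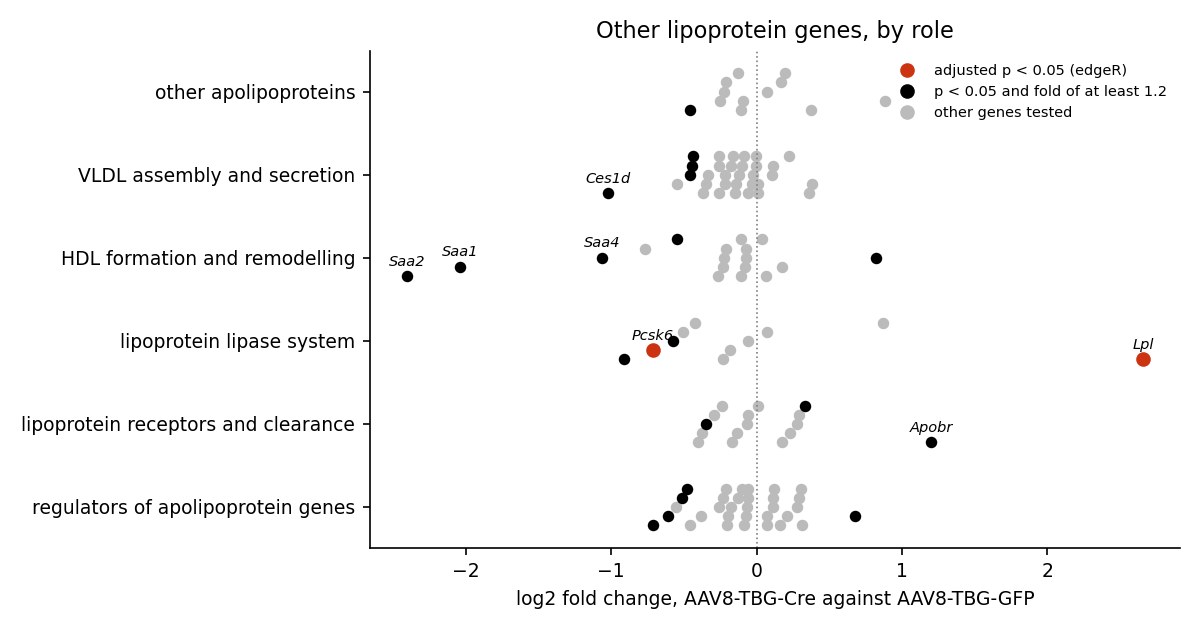
Log2 fold change (AAV8-TBG-Cre against AAV8-TBG-GFP, edgeR) of the 121 other lipoprotein genes tested, by list; red points have an adjusted p under 0.05, black points a p under 0.05 with a fold of at least 1.2, and genes with a red point or a log2 fold change beyond 1 in size and past the threshold are named. The vertical position within a list carries no value; 5 genes are called higher and 17 lower.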

How the data were processed

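The authors deposited expected counts per transcript and FPKM per transcript and gene for each liver. The submitters' processing notes name HISAT2, Bowtie2, RSEM and mm10, whereas the methods of the study name STAR, HTSeq and DESeq2, and which made the files is not given in the sources used here. The expected counts are estimates and 45.4% of them are whole (within 0.005). They were summed per NCBI gene ID and rounded. Genes were tested with edgeR 4.0.16 (TMM, filterByExpr, quasi-likelihood test, vector as the only factor, Benjamini-Hochberg adjustment over 13431 genes). TMM factors were 0.913 to 0.967 for AAV8-TBG-GFP and 0.989 to 1.18 for AAV8-TBG-Cre libraries. DESeq2 1.42.0, other scalings and filters, limma 3.58.1 on log2(FPKM + 1) or log2(FPKM + 0.1), covariates and leaving out each library were alternatives. A fold change on a log2(FPKM + pseudocount) scale understates that of low genes. The scripts were tested on simulated data. Standard errors come from the quasi-F statistic.

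Each library is a separate mouse. Libraries sharing a vector differed by more than sampling noise (chi-square per gene of 25.1 or more). Except in the permutation tests, p-values rest on the spread between 3 mice per group, moderated by the spread of other genes. They and the standard errors thus do not measure the scatter of a single gene between mice alone. The 10 genes and the lists were chosen with earlier results of these data known. Named were all 10 genes and, of each other list, the genes with an adjusted p under 0.05 and the smallest p-values, up to 4 a list. Genes named beyond this are marked, except Apoc1 and Apoc4, which were named for their place in a gene cluster. Mettl14 was named as the targeted gene, and Spp1, Fabp2 and the enterocyte markers at 0 for their levels. Figures of other cell types are sums over marker lists. Motifs were counted as exact matches.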

Additional observations from a re-analysis of the deposited data

How the results depend on the processing

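Of the 10 genes, Apoa2 kept its direction and its call in 17 of 18 alternatives, Apom in 14 and Mttp in 13, all 3 with the same sign throughout. Apoa2 missed the threshold with limma on log2(FPKM + 1) without a filter (-0.44), Apom when the form of name was a covariate (0.39) and Mttp with hepatocyte marker scaling (-0.29) and with limma on FPKM at either pseudocount or unfiltered (-0.24 each). Apoa4 moved to -0.70 with the name form, -0.38 with the replicate block and -0.23 with limma on FPKM, past no threshold. Genes near 0 changed sign: Apoa4 with hepatocyte marker scaling (0.036), Apoa5 with upper quartile normalization (6.71e-05), hepatocyte marker scaling (0.047), the name form (0.00095) and the 3 limma fits (0.11 each), Apob with upper quartile normalization (0.059), hepatocyte marker scaling (0.14), at least 10 counts in every library (0.012) and limma (0.16 each), and Apoc2 with limma (0.031 each).

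The number of the 10 genes called higher was 0 with the name form and at a fold of 1.5, and the number called lower was 1 with hepatocyte marker scaling, limma on filtered FPKM at either pseudocount and a fold of 1.5, and 0 with limma without a filter. DESeq2 gave 2 lower at an adjusted p under 0.05. For the other lists, the number higher was 8 with upper quartile normalization and 12, 14 and 11 with limma on log2(FPKM + 1), log2(FPKM + 0.1) and log2(FPKM + 1) without a filter, and the number lower was 9, 9 and 8 with the same 3 fits. Their adjusted calls were 3 higher and 8 lower with DESeq2, 0 higher and 0 lower with limma, 0 lower with hepatocyte marker scaling and 2 lower without a filter on low counts. Apart from the adjusted calls of DESeq2, the shares of all genes called in the alternatives were not counted. The causes were not tested.

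Leaving out 1 library moved the log2 fold change of Apoa1 from -0.079 to 0.28, Apoa2 from -0.69 to -0.52, Apoa4 from -1.22 to 0.33, Apoa5 from -0.15 to 0.057, Apob from -0.074 to 0.067, Apoc2 from -0.30 to 0.095, Apoc3 from -0.39 to -0.13, Apoe from -0.32 to -0.16, Apom from 0.27 to 0.72 and Mttp from -0.51 to -0.34. Calls among the 10 genes ran from 0 to 1 higher and from 1 to 3 lower, and in the other lists from 4 to 7 higher and from 11 to 26 lower, with 0 to 3 higher and 0 to 11 lower at an adjusted p under 0.05 (3 and 11 without AAV8-TBG-Cre replicate 1).

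The labels number the replicates 1 to 3 in both groups, but same-numbered libraries did not deviate together (r = 0.00925, -0.263 and 0.209), and only replicate 3 correlated best with its own number. With a replicate block the calls among the 10 genes stayed at 1 higher and 2 lower, and the adjusted calls in the other lists became 0 higher and 0 lower. With 3 mice per group, the 95% intervals of Apoa4, Apoc2, Apoc3 and Apoe do not exclude a fold of 1.5 lower. Those of Apoa1 and Apoa4, which reach a fold of 1.65 and 2.70, do not exclude a fold of 1.5 higher.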
